A study of Mus musculus with 4 samples.

Results

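Lrrc34, Lrriq4 and Lrrc31 are neighbouring genes of mouse chromosome 3 whose transcripts fell together in embryonic stem cells given 4-hydroxytamoxifen to delete Smarca4. They were taken with 4 flanking genes, Mynn, Samd7, Sec62 and Gpr160, as rows of the count files with those symbols, 7 of 24428 genes in all. The first 3 were chosen because their counts fell in this very comparison, so their change is given as a description without a test, while the flanking genes were chosen by position. All 4 libraries were poly(A) RNA of 129SvEv embryonic stem cells at passage 15-20, grown with serum and LIF, in which both copies of Smarca4 are floxed and a CreER recombinase is present. Smarca4 encodes BRG1, the motor protein of BAF complexes, which move nucleosomes. Ethanol was given to 2 samples and 4-hydroxytamoxifen at 0.8 uM to the other 2, for 48 h, and RNA was taken 72 h after the start. The genotype label is the same in all 4 libraries, the labels do not say whether replicates came from separate cultures, and tamoxifen-treated cells without floxed Smarca4 were not analysed here. Each difference is therefore one between treatments, in which deletion, drug and active Cre cannot be told apart, and its p-value measures a spread that may be technical.

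The leucine-rich repeat is a short protein motif that stacks into a curved surface on which other proteins bind, and it occurs in many otherwise unrelated proteins. Lrrc34 encodes a nucleolar protein of this kind that is found in pluripotent stem cells. Lrriq4 combines such repeats with an IQ motif, the type of segment to which calmodulin binds, and Lrrc31 has been described mainly in epithelia. Of the flanking genes, Mynn encodes a zinc finger protein with a BTB domain, Samd7 a partner of Polycomb proteins in photoreceptors, Sec62 a membrane protein that helps to move new proteins into the endoplasmic reticulum, and Gpr160 an orphan G protein-coupled receptor. The question put to the data was where along the chromosome the joint fall ends.

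In the GRCm38 annotation the order is Mynn, Lrrc34, Lrriq4, Lrrc31, Samd7, Sec62 and Gpr160. Lrrc34 and Lrrc31 lie on the minus strand and the others on the plus strand. In that annotation Lrriq4 begins 3.36 kb inside Lrrc34, measured from the start of Lrrc34, so the 5′ ends of these genes overlap. RefSeq gives Lrriq4 2 start sites, one 3331 bases from the start of Lrrc34 and one separated from it by 150 bases. From the latter start the genes point away from each other. The 300-base promoter windows of that start and of Lrrc34 overlap by 250 bases. Lrrc34 and Lrriq4 share 98 exonic bases on opposite strands, of 1891 exonic bases in Lrrc34 and 2762 in Lrriq4. The strand setting of the counting is not given in the sources used here, so reads from those bases cannot be told apart. Lrrc31 shares no exonic base with Lrrc34 or Lrriq4, and 648 of its 5530 exonic bases with the antisense gene Gm15462. Sec62 shares 509 of its 4343 exonic bases with 4933429H19Rik on the opposite strand. The gap between gene ends is 4.39 kb from Mynn to Lrrc34, 6.63 kb from Lrriq4 to Lrrc31 and 46.5 kb from Lrrc31 to Samd7.

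Promoter sequences are shown for the genes of the joint fall and for Mynn, the nearest measured gene outside it. They come from RefSeq (GRCm38.p6) and run 5′ to 3′ on the strand of the gene named first. Letters in capitals match one of the searched motifs. The first stretch lies between the start of Lrrc34 and the nearer Lrriq4 start, at chr3:30647819-30647968 on the minus strand. The others are the 250 bases before the start of Lrrc31, at chr3:30699844-30700093 on the minus strand, and of Mynn, at chr3:30601837-30602086 on the plus strand.
Lrrc34 and Lrriq4: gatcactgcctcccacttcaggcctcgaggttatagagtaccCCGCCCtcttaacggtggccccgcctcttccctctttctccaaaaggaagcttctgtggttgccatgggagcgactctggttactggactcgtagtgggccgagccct
Lrrc31: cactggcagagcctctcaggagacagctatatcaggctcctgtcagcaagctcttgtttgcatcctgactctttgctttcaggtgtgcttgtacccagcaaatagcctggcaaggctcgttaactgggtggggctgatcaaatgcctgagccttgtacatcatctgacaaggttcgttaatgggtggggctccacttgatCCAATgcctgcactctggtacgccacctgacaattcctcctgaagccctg
Mynn: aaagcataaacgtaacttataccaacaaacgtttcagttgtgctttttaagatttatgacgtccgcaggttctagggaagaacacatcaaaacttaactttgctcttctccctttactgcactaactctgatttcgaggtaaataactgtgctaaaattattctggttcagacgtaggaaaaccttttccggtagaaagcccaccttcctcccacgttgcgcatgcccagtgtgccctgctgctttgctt

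The motifs searched on both strands were the GC box (GGGCGG), the CCAAT box (CCAAT), the TATA box (TATAAA), the octamer (ATGCAAAT), a SOX motif (CATTGT), an ESRRB motif (AAGGTCA) and a STAT motif (TTCNNNGAA). The stretch shared by Lrrc34 and Lrriq4 held 1 GC box, which 28.6% of all promoter windows of that length hold, and 7 CpG sites against a median of 4. The Lrrc31 window held 1 CCAAT box, found in 33.8% of windows of 250 bases, and 3 CpG sites against a median of 6. None of these 7 motifs was in the Mynn window, which had 9 CpG sites. No searched motif was found in both printed windows of the genes that fell together. The 250 bases before the farther Lrriq4 start, not printed, held 1 CCAAT box, as the Lrrc31 window did, and 0 CpG sites. A match describes letters only, and a missing match says nothing of the factor.

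Lrrc34 was the most abundant of the 3 genes and fell from 60.7 and 74.9 CPM (counts scaled to library size with TMM factors) after ethanol to 7.57 and 6.84 CPM after tamoxifen. These levels rest on 931 and 1950 reads with ethanol and 107 and 122 with tamoxifen. The group means were 67.8 ± 10.1 and 7.20 ± 0.519 CPM (SD, n = 2), a 9.43-fold fall, or -3.24 ± 0.18 on the log2 scale (SE). Both tamoxifen libraries were far below both ethanol libraries, which differed from each other by much less.

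Lrriq4 gave 117 and 209 reads with ethanol and 11 and 18 with tamoxifen, or 7.62 and 8.03 CPM against 0.778 and 1.01 CPM. Its fall was 8.61-fold (-3.11 ± 0.27 log2, SE). The tamoxifen libraries again lay below both ethanol libraries, at a level where a few reads decide the value.

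Lrrc31, the last gene of the joint fall, had 86 and 141 reads with ethanol and 6 and 10 with tamoxifen. Its level went from 5.60 and 5.41 CPM to 0.425 and 0.560 CPM, a 10.9-fold fall (-3.44 ± 0.31 log2, SE). Lrrc31 shares no exonic base with Lrrc34 or Lrriq4, and its fall was of like size. All of these genes were chosen for their fall, so the part of shared exonic reads was not tested.

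The ethanol level left with tamoxifen was 10.6% for Lrrc34 (8.26 to 13.6% for 2 SE either way), 11.6% for Lrriq4 (8.04 to 16.8%) and 9.19% for Lrrc31 (5.96 to 14.2%). These ranges overlap one another. Smarca4 itself kept 18.6% (14.8 to 23.4%), with 5042 and 10649 reads after ethanol and 968 and 1226 after tamoxifen. Reads from its undeleted exons are part of that count. Per kilobase of the longest transcript, Lrrc34 stood at 35.8 ± 5.32 CPM per kb with ethanol, Lrriq4 at 3.28 ± 0.120 and Lrrc31 at 1.68 ± 0.0405 (SD, n = 2). The order of these length-scaled levels was kept with tamoxifen, at 3.81 ± 0.274, 0.374 ± 0.0683 and 0.150 ± 0.0293 CPM per kb.

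**Figure D1:**
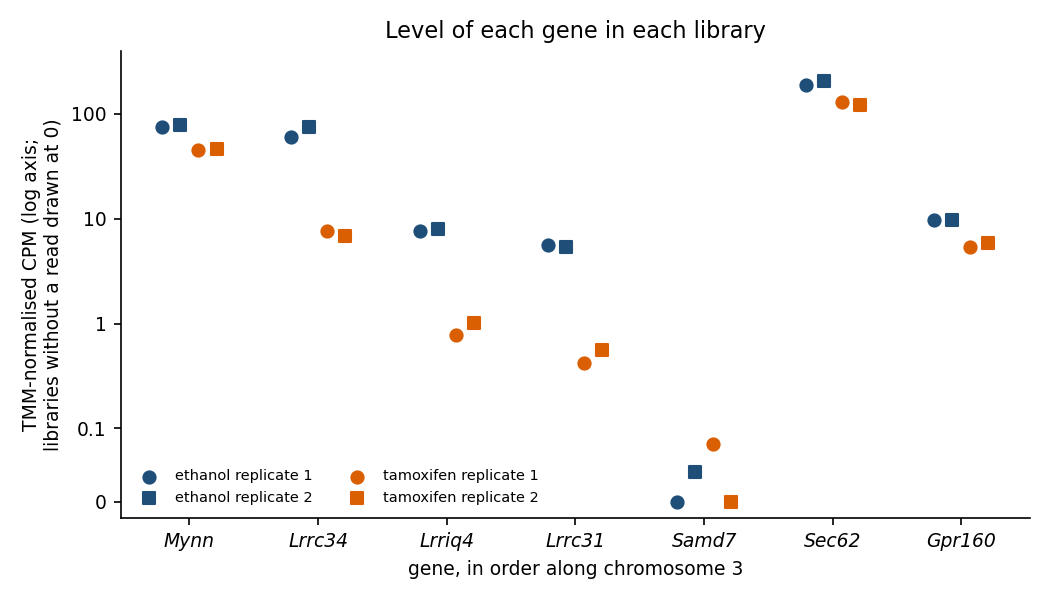
TMM-normalised CPM (log axis) of the 7 genes in their order along chromosome 3, with 1 point per library; blue is ethanol, orange tamoxifen, circles replicate 1 and squares replicate 2. Lrrc34 drops from 60.7 and 74.9 to 7.57 and 6.84 CPM, Mynn only from 74.7 and 78.8 to 45.3 and 46.4 CPM, and Samd7 has at most 1 read in any library.

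The flanking genes changed far less. Mynn, next to Lrrc34, had 1147 and 2051 reads with ethanol and 640 and 828 with tamoxifen, or 74.7 and 78.8 against 45.3 and 46.4 CPM. It fell 1.67-fold (-0.74 ± 0.14 log2, SE; edgeR quasi-likelihood test, adjusted p = 0.00159). Its groups did not overlap, but the tamoxifen libraries kept 59.7% of the ethanol level.

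Samd7, the next gene after Lrrc31, was practically silent. It had 0 and 1 read after ethanol and 1 and 0 after tamoxifen. A count of 0 allows up to 3 reads, or 0.195 CPM in ethanol replicate 1 and 0.168 CPM in tamoxifen replicate 2 (counting error only). It was too low to test, so the end of the fall on this side lies somewhere between Lrrc31 and Sec62, the next measured gene.

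Sec62 was the most abundant of the 7 genes, with 188 and 207 CPM after ethanol and 129 and 122 CPM after tamoxifen. It fell 1.58-fold (-0.66 ± 0.15 log2, SE; edgeR quasi-likelihood test, adjusted p = 0.00385), and this call ended without tamoxifen replicate 2 (-0.62, adjusted p = 0.0574). Gpr160 had 9.64 CPM in both ethanol libraries and 5.38 and 5.88 CPM with tamoxifen. It fell 1.71-fold (-0.77 ± 0.19 log2, SE; edgeR quasi-likelihood test, adjusted p = 0.00615) and was not called without tamoxifen replicate 1 (-0.71, adjusted p = 0.0502). Neither gene's groups overlapped.

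Mynn, Sec62 and Gpr160 were thus called lower in 3 of 3 tested cases, where 22.9% of all 14479 tested genes were called lower and 37.0% had both tamoxifen libraries below both ethanol libraries. Among the 4623 tested genes with transcripts of 41.3 to 48.4% GC, the range of the neighbourhood, 38.2% were called lower. The 3 genes kept 58.6 to 63.5% of the ethanol level, with bounds of 2 SE from 45.1 to 77.8%. The corresponding bounds of Lrrc34, Lrriq4 and Lrrc31 ran from 5.96 to 16.8%, and the ranges of the flanks and of the joint fall did not meet. Lrrc34, Lrriq4 and Lrrc31 were chosen for their fall, so this gap is a description and no test of a border.

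Ratios of counts within a library need no scaling between libraries. For every 100 reads of Lrrc34 there were 123 and 105 reads of Mynn with ethanol and 598 and 679 with tamoxifen. The log2 ratio of Mynn to Lrrc34 rose by 2.48, from 0.19 ± 0.16 to 2.67 ± 0.13 (SD, n = 2). On the other side, Lrrc31 gave 2.99 and 2.62 reads per 100 of Sec62 with ethanol and 0.330 and 0.460 with tamoxifen, a log2 ratio lower by 2.76 (from -5.15 ± 0.14 to -7.91 ± 0.31). Each of these ratios has a gene chosen for its fall as one term, so the shifts place the borders as a description and test nothing.

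Inside the joint fall the ratios shifted less. Both terms of each such ratio were chosen for falling together, so small shifts follow from that choice and test nothing. Lrrc34 had 796 and 933 reads per 100 of Lrriq4 with ethanol and 973 and 678 with tamoxifen, and the groups overlapped. Lrriq4 had 136 and 148 reads per 100 of Lrrc31 with ethanol and 183 and 180 with tamoxifen, a log2 ratio higher by 0.32 (from 0.50 ± 0.088 to 0.82 ± 0.0042, SD, n = 2), with groups that did not overlap. Among the flanks, Sec62 had 1947 and 2145 reads per 100 of Gpr160 with ethanol and 2391 and 2072 with tamoxifen, again overlapping. The log2 ratio of Gpr160 to Phc3, the first gene beyond it, was lower by 0.57 with tamoxifen, with groups that did not overlap. Such separation was common: the groups of 74.0% of all 14479 tested genes did not overlap in either direction. That share is for single genes, not for ratios. An exact permutation of 2 against 2 libraries cannot reach the threshold of 0.05, so non-overlap alone singles out neither ratio.

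**Figure D2:**
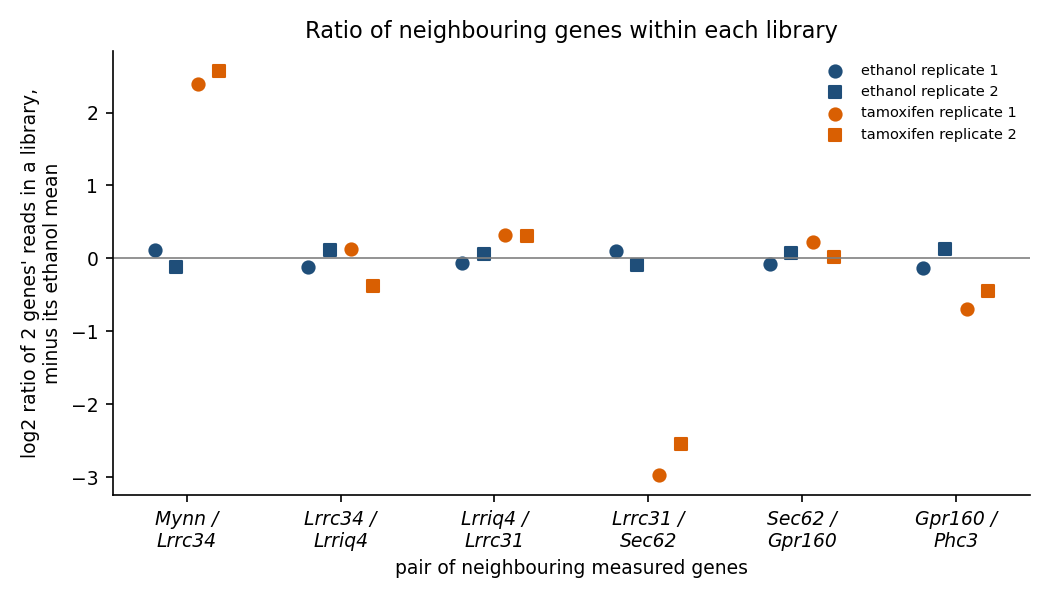
Log2 ratio of the reads of 2 neighbouring measured genes in each library, minus the ethanol mean of that ratio, for 6 pairs in order along chromosome 3; colours and symbols mark treatment and replicate. The ratios that cross a border of the joint fall, Mynn to Lrrc34 and Lrrc31 to Sec62, shift by 2.48 and -2.76 with tamoxifen. The others shift by 0.57 or less in either direction. Genes of the joint fall were chosen for it, so this contrast is a description.

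The change of a gene moved with the GC content of its transcript across the whole data set (Spearman correlation 0.633 over tested genes, which share the 4 libraries). The 6 measured genes of the neighbourhood lie between 41.3 and 48.4% GC, and the 4623 tested genes in that range had a median log2 fold change of -0.34 (quartiles -0.63 and -0.02). A fit with each library's GC trend removed left Lrrc34 at -2.66, Lrriq4 at -2.99 and Lrrc31 at -3.20 on the log2 scale, falls of 6.34-, 7.97- and 9.18-fold. Mynn went to -0.20 and Sec62 to -0.15, and neither was called any longer (edgeR quasi-likelihood test, adjusted p = 0.337 and 0.476). Gpr160 stayed below the threshold at -0.57 (adjusted p = 0.0433; 10.3% of all tested genes were called lower in this fit), but not without ethanol replicate 2 (-0.58, adjusted p = 0.0543), tamoxifen replicate 1 (-0.52, adjusted p = 0.235) or tamoxifen replicate 2 (-0.63, adjusted p = 0.185). The small falls of Mynn and Sec62 therefore depended on the treatment of GC content, whose part in them was not tested further.

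**Figure D3:**
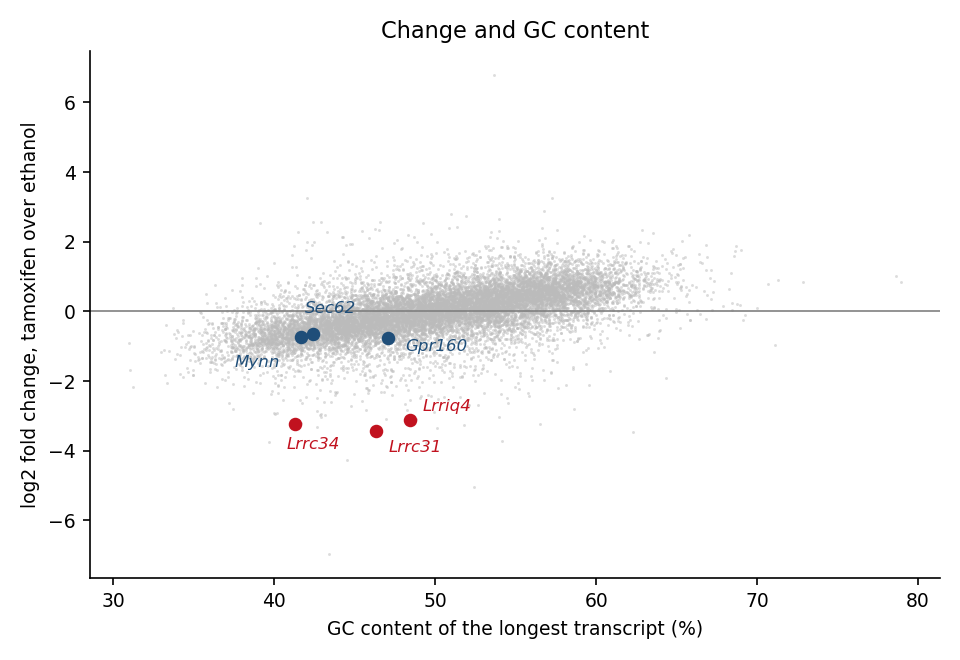
Log2 fold change (tamoxifen over ethanol) against GC content of the longest transcript for all tested genes (grey), with Lrrc34, Lrriq4 and Lrrc31 in red and Mynn, Sec62 and Gpr160 in blue. The blue points lie at -0.66 to -0.77, a little under the lower quartile of -0.63 for genes of like GC content, and the red points at -3.24, -3.11 and -3.44 lie far below it.

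A fall of at least 8-fold was rare. It was reached by 20 of 14479 tested genes (0.138%), and Lrrc34, Lrriq4 and Lrrc31 ranked 12, 16 and 8 among the lowest log2 fold changes. When all tested genes with a chromosome position were put in order, 39 runs of 3 or more consecutive genes were each at least 2-fold lower, 154 genes in all. Several were clusters of similar Zfp or Gm genes, whose reads may be split between copies, and the longest held 12 genes. Only 1 of the 39 had every gene at least 8-fold lower, the run from Lrrc34 to Lrrc31. Head-to-head gene pairs with overlapping promoter windows numbered 619 where both genes were tested, and in 9 of them both were at least 2-fold lower. In 1 of these, Lrrc34 and Lrriq4, both fell at least 8-fold. The genes were picked for this fall, so these counts describe how uncommon it is here and test nothing.

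Farther out, 20 other genes of the count files lie within 10 rows on either side, of which 7 had enough reads to test. To the left of Mynn the first 7 were not testable. Actrt3, a gene of the actin-related family directly beyond Mynn, had 5 and 7 reads with ethanol and none in either tamoxifen library, at least 3.09-fold lower when the 0 is set to 3 counts over the group (counting error only). It was left out of the test by the filter on low counts, and with no filter it was called lower (edgeR quasi-likelihood test, adjusted p = 0.0144). Mecom, the large gene next to it, had 2 and 4 reads with ethanol and 7 and 9 with tamoxifen. Reads this few do not place Actrt3 inside or outside the joint fall, from which Mynn separates it.

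The first tested gene on the left was Rpl22l1, which encodes a paralog of a ribosomal protein and starts 1842 kb from Lrrc34 in GRCm38. It had 89.6 and 49.6 CPM with ethanol and 11.7 and 11.2 CPM with tamoxifen, a 6.08-fold fall (-2.60 ± 0.27 log2, SE; edgeR quasi-likelihood test, adjusted p = 0.000255; -2.18 with GC correction). Its neighbour Eif5a2, a paralog of a translation factor gene, fell 2.52-fold, from 64.3 and 55.5 to 22.8 and 24.7 CPM (edgeR quasi-likelihood test, adjusted p = 0.000117; -0.61 log2 with GC correction, adjusted p = 0.0150). The corrected call of Eif5a2 was lost without tamoxifen replicate 1 (-0.60, adjusted p = 0.102) or 2 (-0.62, adjusted p = 0.123). The ethanol libraries differed widely for Rpl22l1, and both were above the tamoxifen libraries. Between these genes and Mynn lie Gm1527, Egfem1, Mannr, Mecom, Actrt3 and the microRNA genes Mir551b and Mir21b, all too low to test, so the data cannot show whether the falls are connected.

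To the right, Phc3, which encodes a subunit of the Polycomb complex PRC1, had 59.0 and 49.5 CPM with ethanol and 48.8 and 45.1 CPM with tamoxifen (-0.21 ± 0.15 log2, SE; edgeR quasi-likelihood test, adjusted p = 0.284). With GC correction its value turned to 0.20, also not called. Of the genes beyond it, 3 were called lower by modest amounts (edgeR quasi-likelihood test). Prkci, an atypical protein kinase C gene, fell 1.37-fold (adjusted p = 0.0334), Skil, a repressor of SMAD signaling, fell 1.69-fold (adjusted p = 0.00227), and Pik3ca, a catalytic subunit gene of PI3 kinase, fell 1.55-fold (adjusted p = 0.00441). The call of Prkci ended with upper-quartile scaling (adjusted p = 0.0568), with total counts (0.107) and without ethanol replicate 2 (-0.27 log2, 0.181), tamoxifen replicate 1 (-0.48, 0.139) or tamoxifen replicate 2 (-0.44, 0.191), and that of Pik3ca without tamoxifen replicate 1 (-0.55, 0.0655). With GC correction none of these 3 was called, at -0.09, -0.17 and -0.06 log2. Zmat3 was not called in either fit (-0.08 and 0.09 log2).

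In all, 5 of the 7 tested genes around the neighbourhood were called lower, against 22.9% of all tested genes, and 2 with GC correction, Rpl22l1 and Eif5a2, against 10.3%. The median log2 fold change of the 7 was -0.64, and over all tested genes it was -0.01. With 20 rows to each side, 19 genes were tested, of which 8 were called lower and 1 higher, against 22.9% and 21.5% of all tested genes. The higher one, Gnb4, a G protein subunit gene, was named after its values were seen (0.86 log2, edgeR quasi-likelihood test, adjusted p = 0.00212). With GC correction Rpl22l1, Eif5a2 and Mrpl47 were called lower and Gnb4 and Mfn1 higher, against 10.3% and 10.8% of all tested genes. Mrpl47 and Mfn1 too were named after their values were seen.

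**Figure D4:**
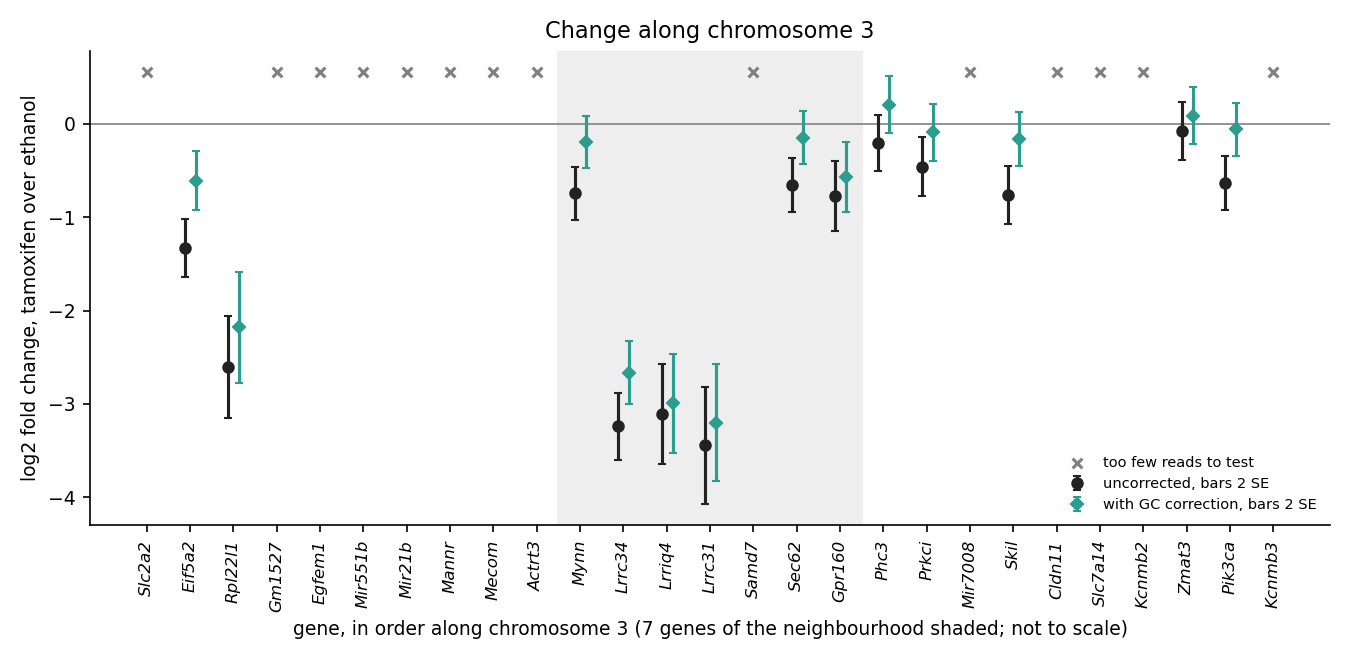
Log2 fold change (tamoxifen over ethanol) of the 7 genes (shaded) and of 10 genes on either side in chromosome order, black without and green with GC correction, bars 2 SE; grey crosses, drawn at an arbitrary height, mark genes with too few reads to test. Lrrc34, Lrriq4 and Lrrc31 stand near -3 in both fits, Mynn, Sec62 and Phc3 move to between -0.20 and 0.20 with the correction, and Rpl22l1 falls apart from them at the left.

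The 5 other tested genes most like Lrrc34 over the 4 libraries, by the distance of log2 CPM deviations from the gene's own mean, lie on other chromosomes. They were Lrrc18 (distance 0.177), Pax8 (0.433), Igsf21 (0.517), Calml4 (0.538) and Mtap7d3 (0.542). Lrrc18 had no read with tamoxifen, so its tamoxifen values, and with them its small distance, rest on the prior count of 2 added before taking logs. Lrrc31 (0.417) and Lrriq4 (0.432) came next after Lrrc18 when the members were ranked too, whereas Gpr160, Mynn and Sec62 stood at 2.46, 2.48 and 2.56. Lrrc34, Lrriq4 and Lrrc31 were chosen for falling together in these same libraries, so their closeness follows from that choice and tests nothing. Pax8, a transcription factor gene, had 32 and 65 reads with ethanol and 4 and 3 with tamoxifen. Igsf21, an immunoglobulin superfamily gene, had 103 and 135 against 7 and 10 reads, and Calml4, a calmodulin-like gene, 40 and 91 against 6 and 6. Mtap7d3, a microtubule-associated protein gene, had 1594 and 1968 against 142 and 170 reads.

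Other genes named for leucine-rich repeats did not share the fall as a family. Of 68 such rows (symbols starting with Lrrc or Lrriq followed directly by a digit) 42 were tested. Among all tested genes 22.9% were lower and 21.5% higher. Of the 42, 7 were lower and 9 higher (edgeR quasi-likelihood test, adjusted p under 0.05), with a median log2 fold change of -0.01. With GC correction 2 were lower and 5 higher, against 10.3% and 10.8% of all tested genes. Lrrc18 was the extreme case, with 12 and 23 reads in the ethanol libraries and none with tamoxifen. It was at least 9.01-fold lower against 3 counts over the group (edgeR quasi-likelihood test, adjusted p = 0.000837). It passed the filter on low counts through its ethanol libraries alone, so that p-value is a description. Lrrc18 was not tested with a filter on CPM or without ethanol replicate 2. Lrrc40 fell by 0.94 log2 (adjusted p = 0.000615; -0.30 and not called with GC correction), and Lrrc32, which encodes a docking protein for latent TGF-beta, rose by 1.19 ± 0.23 log2 (SE; edgeR quasi-likelihood test, adjusted p = 0.00171; 0.66 with GC correction, a call lost when ethanol replicate 2 or either tamoxifen library was also left out, at adjusted p = 0.195, 0.223 and 0.110).

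Sec62 works beside the Sec61 channel, so its partners were read too. Of 14 genes of the translocon and its partners, 8 were lower and 1 higher (edgeR quasi-likelihood test, adjusted p under 0.05), with a median log2 fold change of -0.49, where 22.9% of all tested genes were lower and 21.5% higher. With GC correction 1 was lower and 1 higher, against 10.3% and 10.8%, and the median was -0.03. Ssr3, a subunit gene of the translocon-associated protein complex, fell by 0.88 log2 (adjusted p = 0.00101), and Ssr2 of the same complex rose by 0.90 log2 (adjusted p = 0.00113). The channel subunit gene Sec61a2 fell by 0.61 log2 (adjusted p = 0.00576), a call lost without tamoxifen replicate 2 (-0.59, adjusted p = 0.0571). With GC correction Ssr3 (-0.28) and Sec61a2 (-0.34) were not called and Ssr2 (0.54) was, but not when tamoxifen replicate 1 or 2 was also left out (adjusted p = 0.222 and 0.0862).

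The labelled cell type was checked by markers. All 12 embryonic stem cell markers had reads in every library, and their summed level was 5828 to 6003 CPM with ethanol and 5896 to 6203 CPM with tamoxifen. Single markers moved under that sum. Of the 12, 1 was called lower and 1 higher, against 22.9% and 21.5% of all tested genes. With GC correction 2 were lower and 4 higher, against 10.3% and 10.8%. Among fibroblast markers, 6 of 9 tested were higher, against 21.5% of all tested genes, and 6 with GC correction, against 10.8%. The sum over 10 fibroblast markers was 183 to 240 CPM with ethanol and 408 to 420 CPM with tamoxifen. Ciliated cell markers were lower in 2 of 4 tested cases, against 22.9% of all tested genes, with sums of 24.6 to 29.5 and 17.9 to 19.1 CPM. After GC correction 2 ciliated cell markers were lower, against 10.3%, but not the same 2. The part of these shifts in the fall of Lrrc34, Lrriq4 and Lrrc31 was not tested, and in bulk RNA fewer cells of a type cannot be told apart from less RNA per cell. The libraries held 13458463 to 27086142 reads in genes, and the share of counted reads assigned to no gene was 51.7 and 40.8% with ethanol and 37.6 and 35.0% with tamoxifen. The part of that difference in the results was not tested.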

How the data were processed

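The files held read counts per gene symbol for each of the 4 libraries, as the authors deposited them. The build was mm9 and Bowtie 1.1.1, CASAVA 1.8.2, DESeq2 and HTSeq are listed, per the submitters' processing notes. For annotation and strand setting, the sources used here give nothing. The 5 summary lines were left out. Counting noise did not account for the differences between replicates (ratio of chi-square to degrees of freedom 37.0 with ethanol, 10.5 with tamoxifen). All genes were fitted in R 4.3.3 with edgeR 4.0.16 (filterByExpr, TMM, robust quasi-likelihood test, treatment as the only term), with Benjamini-Hochberg adjustment over 14479 tested genes and a threshold of 0.05. Standard errors were obtained by dividing the size of the log2 fold change by the root of F. Simulated counts with known changes were used to check the fit. Of changes of 1.5-, 2- and 4-fold, 32.8, 97 and 100% were called, and 4.38% of calls were false. Most changes of 1.5-fold were thus missed. The simulation had a common dispersion and no GC trend, unlike the data.

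For GC correction, a loess trend of each library (span 0.5) on the GC content of the longest GENCODE M21 transcript entered the fit as an offset. Order, overlaps and distances are from that annotation (GRCm38), and of 24428 symbols 23535 matched directly and 506 through a synonym. Promoter windows matched 7 of 7 genes. Log2 ratios used counts plus 0.5, and distances log2 CPM with a prior count of 2. Alternatives were RLE, upper-quartile and total-count scaling, other filters, DESeq2 1.42.0, limma 3.58.1 voom, a stricter threshold, the replicate number as a block and leaving out each library. The last was combined with GC correction after the data were seen.

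The genes, lists and alternatives were chosen with earlier results of these data known. Named were the members, Smarca4, called genes within 10 rows, the first tested gene on each side, the 5 genes most like Lrrc34 and, of each list, the 3 with the smallest adjusted p. Zmat3, Actrt3, Mecom, Gnb4, Mrpl47 and Mfn1 were named outside that rule. The photoreceptor marker list is not reported here.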

Additional observations from a re-analysis of the deposited data

How the results depend on the processing

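Over 17 alternative fits the log2 fold changes of Lrrc34, Lrriq4 and Lrrc31, chosen for their fall, were -3.38 to -2.55, -3.32 to -2.84 and -3.67 to -3.05. Among the measured members, the count called lower includes those 3 genes each time and so speaks only for the flanks: it was 6, 4 with GC correction, 5 to 6 when 1 library was left out and 3 to 4 with both. Over all genes, 6441 were called, 3062 with GC correction, 3806 at an adjusted p under 0.01, 3888 to 7326 when 1 library was left out and 3746, 3724, 1500 and 952 when GC correction was added and ethanol replicate 1 or 2 or tamoxifen replicate 1 or 2 left out. Of the genes within 10 rows, 5 were called lower, 2 with GC correction, 3 to 5 without 1 library (3 without tamoxifen replicate 1) and 1 to 2 with both, and 8 lower and 1 higher with 20 rows to each side. Phc3 turned from -0.21 to 0.20 with GC correction and to 0.35, 0.053, 0.12 and 0.28 when ethanol replicate 1 or 2 or tamoxifen replicate 1 or 2 was also left out. With the correction, Prkci turned to 0.060 without ethanol replicate 2 and Pik3ca to 0.017 without ethanol replicate 1. None of these values was called, and the cause was not tested. The log2 ratio of Lrrc34 to Lrriq4 was -0.38 to 0.12 when 1 library was left out, with the positive value without tamoxifen replicate 2. Scaling by total counts moved the median over all tested genes from -0.01 to 0.12 log2, with 4082 genes called higher and 2520 lower in place of 3119 and 3322. With the replicate number as a block, 8087 genes were called, 6 members were lower and Lrrc34 stood at -3.24; the labels do not tie equal numbers to a shared culture, and deviations of same-numbered libraries correlated at 0.234. A library left alone in its group was assumed to vary like the other group. Depth limits Samd7, Actrt3 and Mecom, and the tamoxifen values of Lrriq4 and Lrrc31 rest on 6 to 18 reads a library.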
